A study of Mus musculus with 12 samples.

Results

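RNA that coprecipitated with Thoc2 was compared with the input RNA of the same culture stage in vascular smooth muscle cells at passage 10. The comparison took 2 of the study's 12 samples, an immunoprecipitate made with an antibody against Thoc2 and an input made with no antibody, with 1 library of each. Its members were all 13467 genes listed in the deposited table of that experiment. The cells were primary vascular smooth muscle cells grown from aortas of C57BL/6 mice killed at 6 weeks of age, and both libraries came from cells at passage 10. No genetic change or agent is given for them, nor how many animals or cultures they came from. The study also silenced Thoc5 by a short hairpin RNA, mapped Thoc5 on chromatin, and repeated the RNA immunoprecipitation with Thoc5 and at passage 3.

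Thoc2 is the large scaffold subunit of the THO complex. THO works with the helicase Ddx39b and the adaptor Alyref in the TREX complex, which joins nascent mRNA and hands it to the export receptor Nxf1 for passage through the nuclear pore. In RNA immunoprecipitation a protein is pulled from a lysate with an antibody, and the RNA that comes with it is sequenced beside the RNA of the lysate. A gene's ratio therefore says how much of the recovered RNA belongs to it relative to its share in the cells, and not how many molecules were bound. A precipitate with a control antibody was not analysed here, so RNA held by Thoc2 and RNA kept on the beads without it cannot be told apart. With 1 library in each arm there was no replicate check and no test, and intervals below are exact 95% intervals of the ratio that cover counting error only.

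The input held 19038634 counted reads and the Thoc2 immunoprecipitate 16303503. Reads were scaled to CPM, the count of a gene relative to its library's own total, and 12635 genes reached 1 CPM in at least 1 of the libraries. The log2 ratio was taken after 0.5 CPM was added to both values. Genes were counted as higher with Thoc2 at a ratio of at least 2-fold with at least 10 reads and 1 CPM in the immunoprecipitate, and as lower by the same rule turned round. A gene seen at 1 CPM in only 1 library could pass only in that library's direction, which held for 140 of the genes counted as higher and 93 of those counted as lower.

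Of the 10 smooth muscle markers, 9 were detected in this comparison, and Acta2 (smooth muscle actin, 4549 CPM in the input), Tagln (transgelin, 1359 CPM) and Cald1 (caldesmon, 1169 CPM) were abundant. The span of Tagln overlaps that of Pcsk7. Myh11, the smooth muscle myosin of mature contractile cells, stood at only 3.05 CPM in the input and 6.93 CPM with Thoc2, and Des (desmin) was under 1 CPM in both. The smooth muscle markers summed to 8527 CPM in the input. Sums for other cell types, detected or not, were 17.3 CPM for 3 macrophage markers and 93.5 CPM for 4 adipocyte markers. They were 274 CPM for 10 endothelial markers and 949 CPM for 11 adventitial fibroblast markers. The endothelial markers Pecam1 and Cdh5 stood at 9.66 and 43.1 CPM in the input. The part of such RNA in any ratio below was not tested.

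Most transcripts stood within 2-fold of their input share. The median log2 ratio of the detected genes was −0.03, and the middle quartiles ran from −0.50 to 0.51. At least 2-fold higher with Thoc2 were 1549 genes (12.3% of those detected) and at least 2-fold lower were 926 (7.33%). The tails were unequal in depth. At least 4-fold higher were 261 genes and at least 4-fold lower 23, while 27 genes reached 8-fold higher and 0 genes 8-fold lower. Genes counted as higher had a median of 17.5 CPM in the input and those counted as lower 34.3 CPM. The input is the denominator of the ratio, and only the lower rule required a minimum in it. This difference is thus partly built into the rule.

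**Figure D1:**
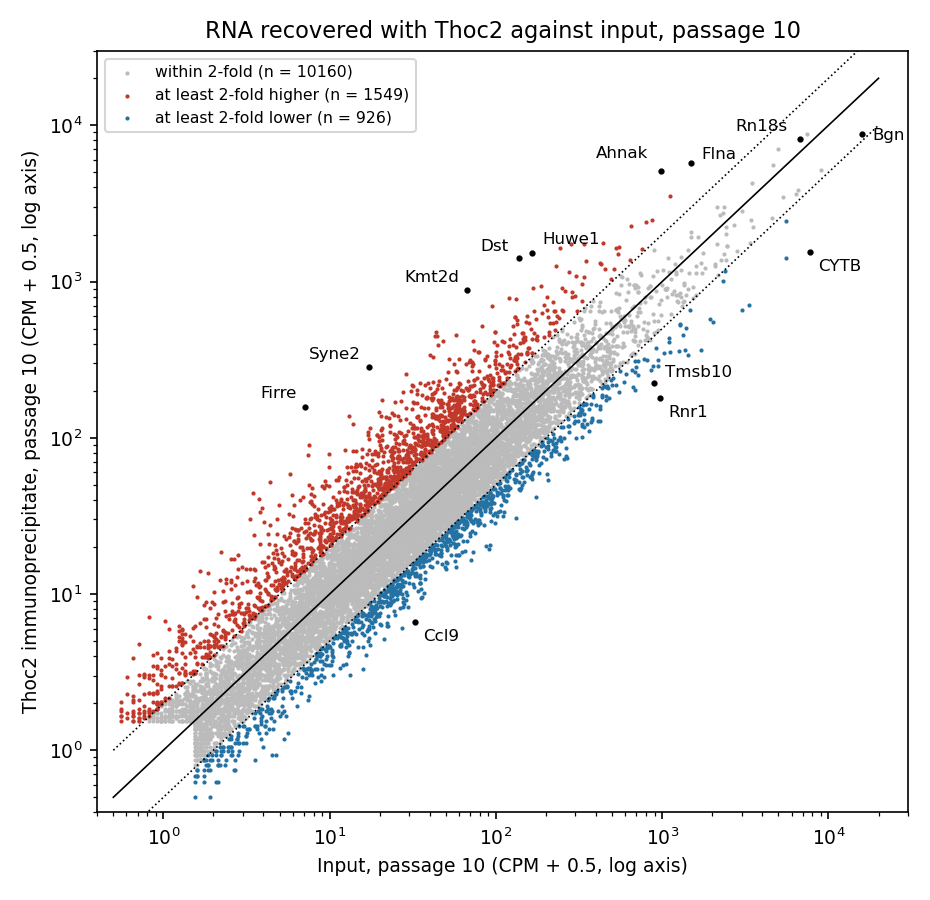
Each point is a detected gene, with its level in the input on the x axis and in the Thoc2 immunoprecipitate on the y axis (CPM + 0.5, log axes, 1 library each). The solid line marks equal levels and the dotted lines a 2-fold difference; red points are the 1549 genes counted as higher and blue points the 926 counted as lower, with named genes in black, and the red cloud reaches farther from the line than the blue.

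The transcripts with the highest ratios were long messenger RNAs and a nuclear non-coding RNA. Firre, an X-linked long non-coding RNA that stays in the nucleus, had 126 reads in the input and 2569 with Thoc2, a 23.8-fold ratio (interval 19.9 to 28.7). Syne2 (nesprin-2), a giant spectrin-like protein that ties the nucleus to the cytoskeleton, had 317 and 4594 reads. Its relative Syne1 had 825 and 7704 reads. Both nesprins were thus among the 20 highest, at 16.9-fold and 10.9-fold. Mdn1 (midasin), an ATPase of ribosome assembly, had 238 and 2246 reads, an 11.0-fold ratio (9.64 to 12.6).

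Several more of the 20 highest were long messages that code for enzymes and scaffolds. Huwe1, a HECT-type ubiquitin ligase, was the most abundant of them in the immunoprecipitate, with 3117 reads in the input and 24923 with Thoc2 (9.34-fold). Dst (dystonin), a linker of cytoskeletal filaments, had 2628 and 23209 reads (10.3-fold), and its span overlaps that of Bend6, so its reads are uncertain. Adcy1, an adenylyl cyclase, had 833 and 7321 reads (10.3-fold). In each of these the counting interval of the ratio lay wholly above 8-fold. Vps13c, a lipid transfer protein, had 101 and 952 reads (11.0-fold, 8.96 to 13.7). Centrosome genes were present with Cntrl (centriolin, 131 and 1257 reads) and Cep152, which acts in centriole duplication (63 and 534 reads).

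The 20 lowest were mostly short messages, mitochondrial transcripts and pseudogenes, apart from Ccl9 and Anapc10, which are near or above the median length. Rps28, a protein of the small ribosomal subunit, had 1755 reads in the input and 326 with Thoc2, 0.217 of its input level (interval 0.192 to 0.244). Rpl39, of the large subunit, had 2495 and 491 reads (0.230). Atp5e, a small subunit of ATP synthase, had 3311 and 669 reads (0.236), and Sec61g, a small subunit of the protein channel of the endoplasmic reticulum, 507 and 91 reads (0.210). These 4 messages kept between 0.210 and 0.236 of their input share. Ccl9, a chemokine, was low at 609 and 99 reads (0.190, interval 0.152 to 0.235) with a length of 3008 bases, above the median of 2809. Anapc10, a subunit of the anaphase-promoting complex, had 242 and 41 reads (0.198) at 2802 bases, with a span that overlaps Abce1.

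**Figure D2:**
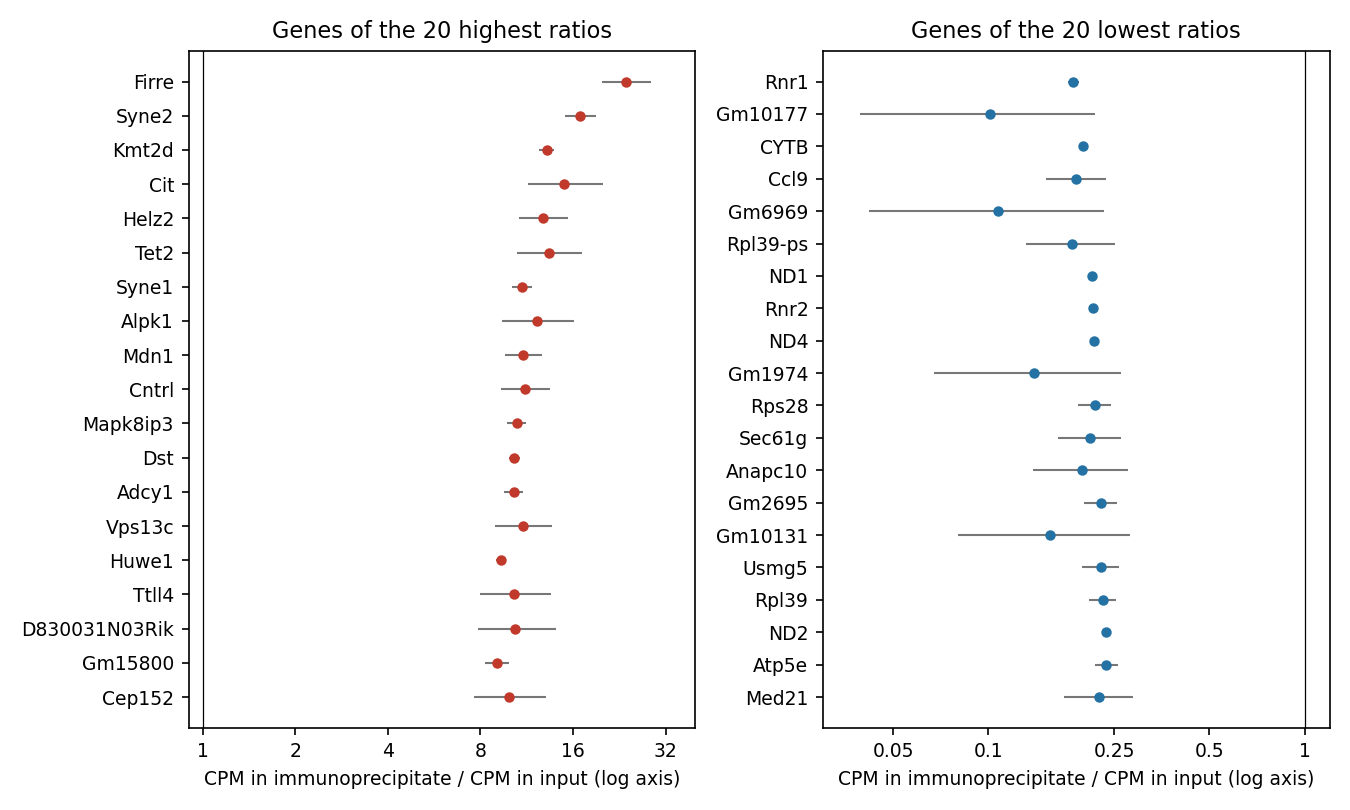
The x axis gives the CPM with Thoc2 divided by the CPM in the input (log axis) for 19 of the 20 genes with the highest ratios (left) and the 20 with the lowest (right); points are ratios and lines exact 95% intervals for counting error only, from 1 library each. Firre stands apart at 23.8-fold on the left, and on the right the widest intervals belong to genes with few reads with Thoc2, such as Gm10177 with 7.

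In absolute share, the largest differences were in a few abundant messages. Flna (filamin A, an actin crosslinker) went from 1489 CPM in the input to 5706 with Thoc2, Ahnak, a giant scaffold protein, from 977 to 5120, and Myh9, a non-muscle myosin, from 1114 to 3523. Lrp1, a scavenger receptor, gained 1617 CPM, Myh10, a further non-muscle myosin, 1591 and Plec (plectin) 1460. Fn1 (fibronectin) gained 2090 CPM but its ratio was only 1.42-fold. On the other side, Bgn (biglycan) went from 15811 to 8832 CPM, the largest loss in share, followed by the mitochondrial message CYTB, from 7735 to 1543 CPM. Cxcl12, a chemokine, went from 9006 to 5171 CPM, Fth1 (ferritin heavy chain) from 5539 to 2422 and Actb from 6351 to 3626. The drop was at least 2-fold for CYTB, COX1, ND1, ND4 and Fth1 and smaller than that for Bgn, Cxcl12, Actb, Sparc and Acta2.

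Length followed the ratio more closely than the input level did. A length was deposited for 11574 of the detected genes (91.6%), for 88.4% of the higher and 94.0% of the lower genes. The median length was 5547 bases for genes counted as higher, 1109.5 for those counted as lower and 2809 for all. Across genes, Spearman's rank correlation between length and log2 ratio was 0.62 (n = 11574 genes, which share the same libraries), against −0.14 between the input level and the ratio. Length and input level were almost unrelated, with a rank correlation of 0.02.

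In 10 bins of equal size the median log2 ratio was higher at every step, from −0.84 in genes of 68 to 1094 bases to 1.02 in genes of 6105 to 23242 bases. In the shortest bin 2.16% of genes were counted as higher and 37.1% as lower. In the longest bin 590 genes (50.9%) were higher and 4 (0.345%) lower. Genes of the longest bin took 8.99% of all counted reads in the input and 19.1% with Thoc2, while genes of the shortest bin went from 13.8% to 6.72%. Of the 19 genes among the 20 highest that have a length, 15 fell in the longest bin, and the shortest of them had 4253 bases. Of the 18 such genes among the 20 lowest, 12 fell in the shortest bin and 0 in the longest.

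**Figure D3:**
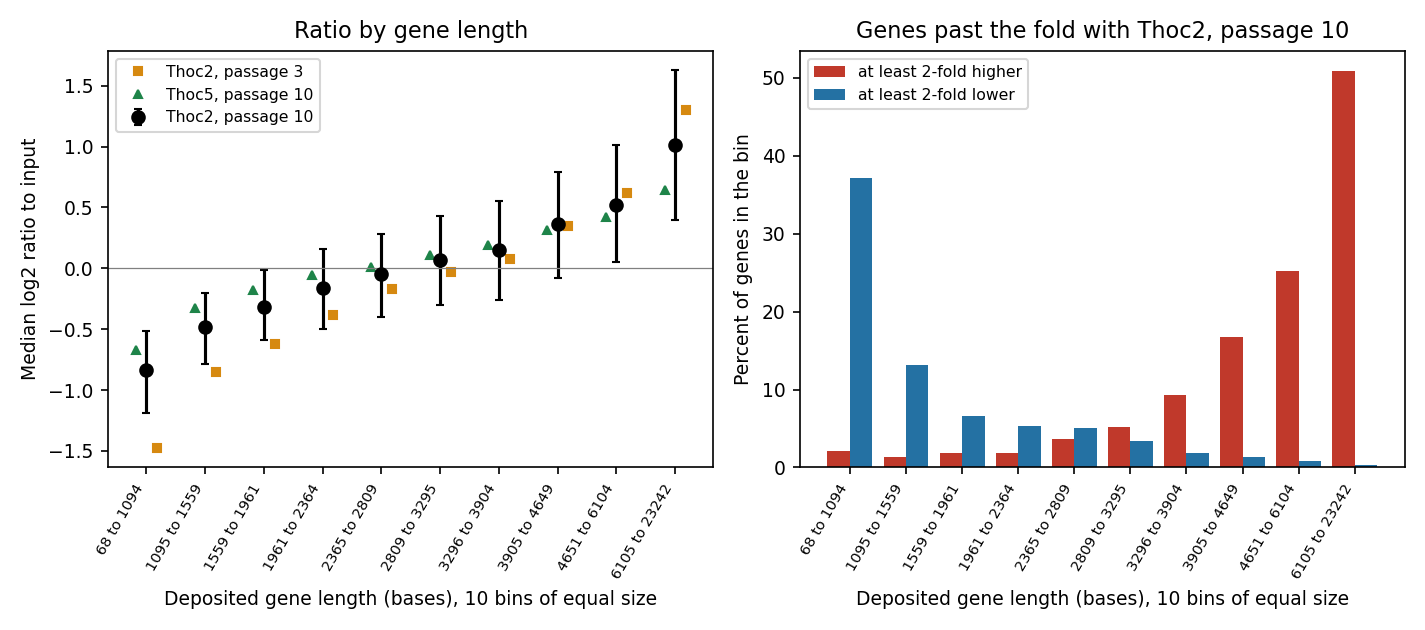
Left, the median log2 ratio to input (y axis) in 10 bins of equal size of the deposited gene length in bases (x axis), with bars from the lower to the upper quartile for Thoc2 at passage 10, and medians for Thoc2 at passage 3 and Thoc5 at passage 10 beside it. Right, the percent of genes in each bin counted as at least 2-fold higher or lower with Thoc2 at passage 10; the higher share reaches 50.9% in the longest bin and the lower share 37.1% in the shortest.

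Each gene was then set against a running median of genes near it in length, 401 in number except toward the ends of the length order. There the window held fewer genes, and for the longest genes these were mostly shorter ones. The spread of the log2 ratio between quartiles was 0.99 before and 0.74 after. At least 2-fold above genes of like length were 651 genes (5.62% of those with a length), of which 537 were also counted as higher. At least 2-fold below were 522 (4.51%), of which 237 were also counted as lower. Firre lay farthest above, by 3.67 on the log2 scale for a length of 6565 bases. The following genes were picked after their values were seen. Alpk1, an innate immune kinase, lay 2.98 above genes of like length, Ttll4, a tubulin glutamylase, 2.85 and Mapk8ip3, a scaffold of JNK signalling and axonal transport, 2.78. The span of Mapk8ip3 overlaps that of Nme3. Mical3, an actin-oxidising enzyme of 2894 bases, had 41 reads in the input and 265 with Thoc2 and lay 2.62 above.

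Long genes with low ratios lay on the other side. Igf1, the growth factor, is 7817 bases long in the deposited table and had 2237 reads in the input and 690 with Thoc2, a log2 difference of −2.50 from genes of like length. Tmem167, of 10809 bases, had 1265 and 506 reads and a difference of −2.56. Naca, a chaperone of nascent chains, had 11542 and 4184 reads at 7034 bases and a difference of −2.06, and Rps15a, a ribosomal protein given 5136 bases, 7788 and 2073 reads and a difference of −2.20. A gene's deposited length need not be that of the transcript made in these cells.

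A list named for nuclear long non-coding RNAs was considered first among the gene groups. It also holds H19 and host RNAs of small nucleolar RNAs, and where its members lie in these cells was not measured. Of 22 detected members of the list, 3 were higher (13.6%, against 12.3% of all genes) and 4 lower (18.2%, against 7.33%). Kcnq1ot1, the antisense RNA of an imprinted domain, had 21 reads in the input and 66 with Thoc2, and Meg3, an imprinted non-coding RNA, 686 and 1663 (2.83-fold). All 4 lower members were host RNAs of small nucleolar RNAs. Gas5 had 5740 and 1625 reads (log2 −1.59), with a span that overlaps Zbtb37 and Snord47, Snhg3 119 and 30 (−1.53), Snhg1 984 and 349 (−1.25) and Snhg8 649 and 245 (−1.16). H19, the most abundant of the list at 1528 CPM in the input, had a log2 ratio of −0.72 and overlaps Mir675. Firre, at 4.47, was the highest of this list, and Kcnq1ot1 and Meg3 followed. The list's median was −0.28, but its direction turned when genes with overlapping spans were left out. Relative to the median of all genes it was −0.26 with them and 0.40 without them. Too few of its members (72.7%) have a length for a comparison with genes of like length. Among all 269 detected genes annotated as long non-coding RNA, 11 (4.09%) were higher and 40 (14.9%) lower, with a median of −0.42.

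Chromatin enzymes stood high as groups, with no member counted as lower in any of 4 lists. Of 25 histone methyltransferase genes 15 were higher (60%, against 12.3% of all genes), with a median log2 ratio of 1.58. The 4 highest were the KMT2 family, which methylates lysine 4 of histone H3. Kmt2a had 909 and 6789 reads (8.72-fold), Kmt2b 632 and 3120 (5.76-fold), Kmt2c 595 and 2740 (5.38-fold) and Kmt2d 1273 and 14327. Kmt2d was the highest of the family both in ratio, at 13.1-fold, and in reads with Thoc2. Smaller members of the list did not pass, such as Kmt5a at −0.36 with a length of 2738 bases. Within the list the rank correlation between length and ratio was 0.67 (24 genes). Even so, 18 of those 24 lay above genes of like length, by a median of 0.66.

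Histone demethylases and enzymes that act on DNA methylation gave a similar picture. Of 29 histone demethylase, TET and DNMT genes 16 were higher (55.2%, against 12.3% of all genes), with a median of 1.03. Tet2, which oxidises methylated cytosine, had 74 reads in the input and 845 with Thoc2, and Tet3 312 and 1281 (4.79-fold). Jmjd1c, a JmjC-domain protein, had 484 and 2242 reads (5.41-fold), with a span that overlaps Reep3. Of 31 chromatin remodelling genes 19 were higher (61.3%), with a median of 1.49. Chd6 had 582 and 3540 reads (7.10-fold) and Baz2b 321 and 1583 (5.76-fold). Chd3, of the NuRD complex, was the most abundant in the input, with 6646 and 21917 reads (3.85-fold). Of 26 acetyltransferase and deacetylase genes, bromodomain and corepressor partners included, 10 were higher (38.5%), among them Ep400 (1297 and 5003 reads) and Crebbp (848 and 2838). In these 3 lists 23 of 27, 24 of 31 and 22 of 25 genes with a length lay above genes of like length.

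Transcription factors of the zinc finger class had a share of higher genes near that of all genes and fewer lower genes. Of 326 detected Zfp genes 42 were higher (12.9%, against 12.3% of all genes) and 6 lower (1.84%, against 7.33%), and their median was 0.14 at a median length of 3502 bases. Against genes of like length their median was −0.03, with 148 of 310 above. The highest was Zfp236 with 356 and 1687 reads (5.53-fold), and the lowest Zfp930 with 103 and 27 (log2 −1.45).

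Subunits of single complexes differed by length. Mediator carries signals from transcription factors to RNA polymerase II. Of its 32 subunit genes 3 were higher (9.38%, against 12.3% of all genes) and 5 lower (15.6%, against 7.33%). Med13l, of 9296 bases, had 1088 and 4366 reads (4.69-fold) and Med12, of 8447 bases, 824 and 2442 (3.46-fold). Med21, of 780 bases, had 396 and 76 reads (0.224) and a span that overlaps Gm6654. The ends of the list thus had log2 ratios of 2.22 and −2.04 within the same complex. The rank correlation between length and ratio was 0.73 over the 32 Mediator genes. Of 13 RNA polymerase II subunit genes 0 were higher and 4 lower (30.8%). Polr2a, the catalytic subunit, had 4557 and 5296 reads (1.36-fold) and the small subunit gene Polr2j 1633 and 564 (0.403).

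Lists of splicing genes differed in how they followed length. Among 32 genes of the spliceosome core the rank correlation with length was 0.89, the highest of the lists, while it was 0.49 for SR proteins, −0.05 for hnRNPs and −0.44 for CLK kinases, cyclin L and LUC7 genes. Of the spliceosome core 3 were higher (9.38%, against 12.3% of all genes) and 6 lower (18.8%, against 7.33%). Sf3b1, which binds the branch point region, had 1868 and 5114 reads (3.20-fold), the helicase Snrnp200 1376 and 3070 (2.61-fold) and Prpf8, at the catalytic centre, 2517 and 5444 (2.53-fold). The short messages of the Sm ring that surrounds the small nuclear RNAs stood low, with Snrpg at 653 and 185 reads (0.331) and Snrpe at 1157 and 382 (0.386). Of 22 SR proteins and relatives 4 were higher (18.2%) and 2 lower (9.09%), with a median whose sign turned when genes with overlapping spans were left out. Srrm2, a scaffold of nuclear speckles, had 4612 and 26630 reads (6.74-fold), with a span that overlaps Elob, and Son 3826 and 10776 (3.29-fold), with a span that overlaps Donson. Srsf10 stood low with 681 and 237 reads although its deposited length is 5499 bases, at −1.88 against genes of like length. Of 29 hnRNP genes 0 were higher and 1 lower. That gene was Pcbp2, which binds poly(C) RNA, with 20975 and 7073 reads and a span that overlaps Map3k12.

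The messages for the export route itself had 3 of 26 genes higher (11.5%, near the 12.3% of all genes) and 5 lower (19.2%, against 7.33%), with a median of −0.14. Thoc2's own message had 1154 reads in the input and 2193 with Thoc2 (2.22-fold), which for its 7619 bases was 0.15 above genes of like length. Mcm3ap, the GANP scaffold of the TREX-2 complex, had 783 and 2924 reads (4.36-fold), with a span that overlaps Ybey, and Zc3h11a, an export-associated zinc finger protein, 3600 and 10256 (3.33-fold), with a span that overlaps Zbed6. Ddx39b was nearly level at 3626 and 3628 reads (1.17-fold), and Thoc7 was low at 1739 and 666, with a span that overlaps Atxn7. Nucleoporin genes had 9 of 28 higher (32.1%) and 0 lower. Ranbp2, on the cytoplasmic filaments of the pore, had 873 and 2266 reads (3.03-fold) and Nup205, of the inner ring, 558 and 1419 (2.97-fold).

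The highest list medians belonged to families of giant proteins, whose lists were drawn up with these earlier results known. Of 15 giant ubiquitin ligase genes 14 were higher (93.3%, against 12.3% of all genes), with a median of 2.42. Besides Huwe1, Rnf213 had 846 and 6384 reads (8.81-fold), Mycbp2 784 and 5372 (8.00-fold) and Ubr4 2519 and 12576 (5.83-fold). Gm15800, named Hectd4 in RefSeq, had 541 and 4184 (9.03-fold). All 6 PIKK kinase genes were higher, with log2 ratios from 1.79 to 2.76. Among them were Smg1, of nonsense-mediated decay (592 and 3483 reads), Trrap, a cofactor of histone acetyltransferases (1557 and 8509), and the DNA damage kinases Atr (143 and 680) and Prkdc (105 and 505). Of these families 14 of 15 and 6 of 6 genes lay above genes of like length, by medians of 0.90 and 0.94. The longest of these genes were set mostly against shorter ones.

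Cytoskeletal and transport proteins followed. Of 13 spectrin, plectin and spectraplakin genes 12 were higher (92.3%, against 12.3% of all genes). Among them were Macf1 (2273 and 12772 reads, 6.56-fold, with a span that overlaps D830031N03Rik) and Plec (5397 and 28424, 6.15-fold). Of 50 dynein, kinesin and unconventional myosin genes 30 were higher (60%, against 12.3% of all genes) and 0 lower. Kif13b, a kinesin, had 103 and 693 reads (7.86-fold) and Myo7a 989 and 5210 (6.15-fold). Kif1c, abundant in the input, had 10451 and 27118 reads (3.03-fold), whereas Myo1c, as abundant, had 10462 and 13544 (1.51-fold). Of 14 VPS13 and BEACH genes 12 were higher (85.7%). Among them was Lyst, whose loss causes lysosome-related organelle defects in the beige mouse, with 325 and 1877 reads (6.74-fold).

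Cell division genes were divided in the same manner. Of 30 mitosis genes 8 were higher (26.7%, against 12.3% of all genes) and 1 lower (3.33%, against 7.33%). Cit (citron kinase), which acts in cytokinesis, had 56 and 719 reads, Aspm, at spindle poles, 85 and 597 (8.20-fold), Cenpe, a kinetochore kinesin, 226 and 1349 (6.97-fold) and Mki67 941 and 3885 (4.82-fold). Cdk1 stood at 1674 and 963 reads (log2 −0.57) and Mad2l1, of the spindle checkpoint, at 374 and 153 (−1.03). The rank correlation with length was 0.81 over 29 of these genes. Of 27 DNA repair and replication polymerase genes 12 were higher (44.4%) and 0 lower, led by Polq (33 and 295 reads), Fanca (63 and 333, with a span that overlaps Zfp276) and Pole (207 and 910).

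Messages of the translation and respiration machinery stood low. Of 84 cytosolic ribosomal protein genes 0 were higher and 48 lower (57.1%, against 7.33% of all genes), with a median log2 ratio of −1.14. Together the 86 listed genes, detected or not, went from 54844 CPM in the input to 26867 with Thoc2. Rplp0 had 44384 and 16432 reads (0.432), while Rpl4 kept more of its share, with 39373 and 21117 (0.626). The median length of the list is 693.5 bases, and against genes of like length its median was −0.30, with 20 of 84 above. Of 83 nuclear respiratory chain genes 0 were higher and 48 lower (57.8%), with a median of −1.06, or −0.18 against genes of like length. The longer Atp5b (19039 and 15552 reads) and Atp5a1 (11195 and 9182, with a span that overlaps Haus1) were nearly level, at log2 ratios of −0.07 and −0.06. Of 78 mitochondrial ribosomal protein genes 0 were higher and 20 lower (25.6%). Translation factors were mixed, with 3 higher and 7 lower of 54. The scaffold Eif4g1 had 5683 and 13101 reads (2.69-fold) and Eif4g3 1354 and 4385 (3.78-fold), whereas the cap-binding protein Eif4e had 805 and 307 (0.445).

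RNA made inside mitochondria was low beyond its length. All 7 detected mitochondrial messages were lower, with log2 ratios from −2.33 to −1.53, and their median against genes of like length was −1.57. COX1 had 104991 reads in the input and 23107 with Thoc2, CYTB 147268 and 25161, ND5 24137 and 5807 and ND6 2037 and 599. Together the 8 listed mitochondrial messages, detected or not, went from 22422 to 5056 CPM. The mitochondrial ribosomal RNAs Rnr1 (18382 and 2919 reads) and Rnr2 (32554 and 5959) had log2 ratios of −2.43 and −2.22. Cytosolic ribosomal RNA was close to level, with 127995 and 133430 reads for Rn18s (1.22-fold) and 8777 and 8875 for Rn28s1 (1.18-fold).

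**Figure D4:**
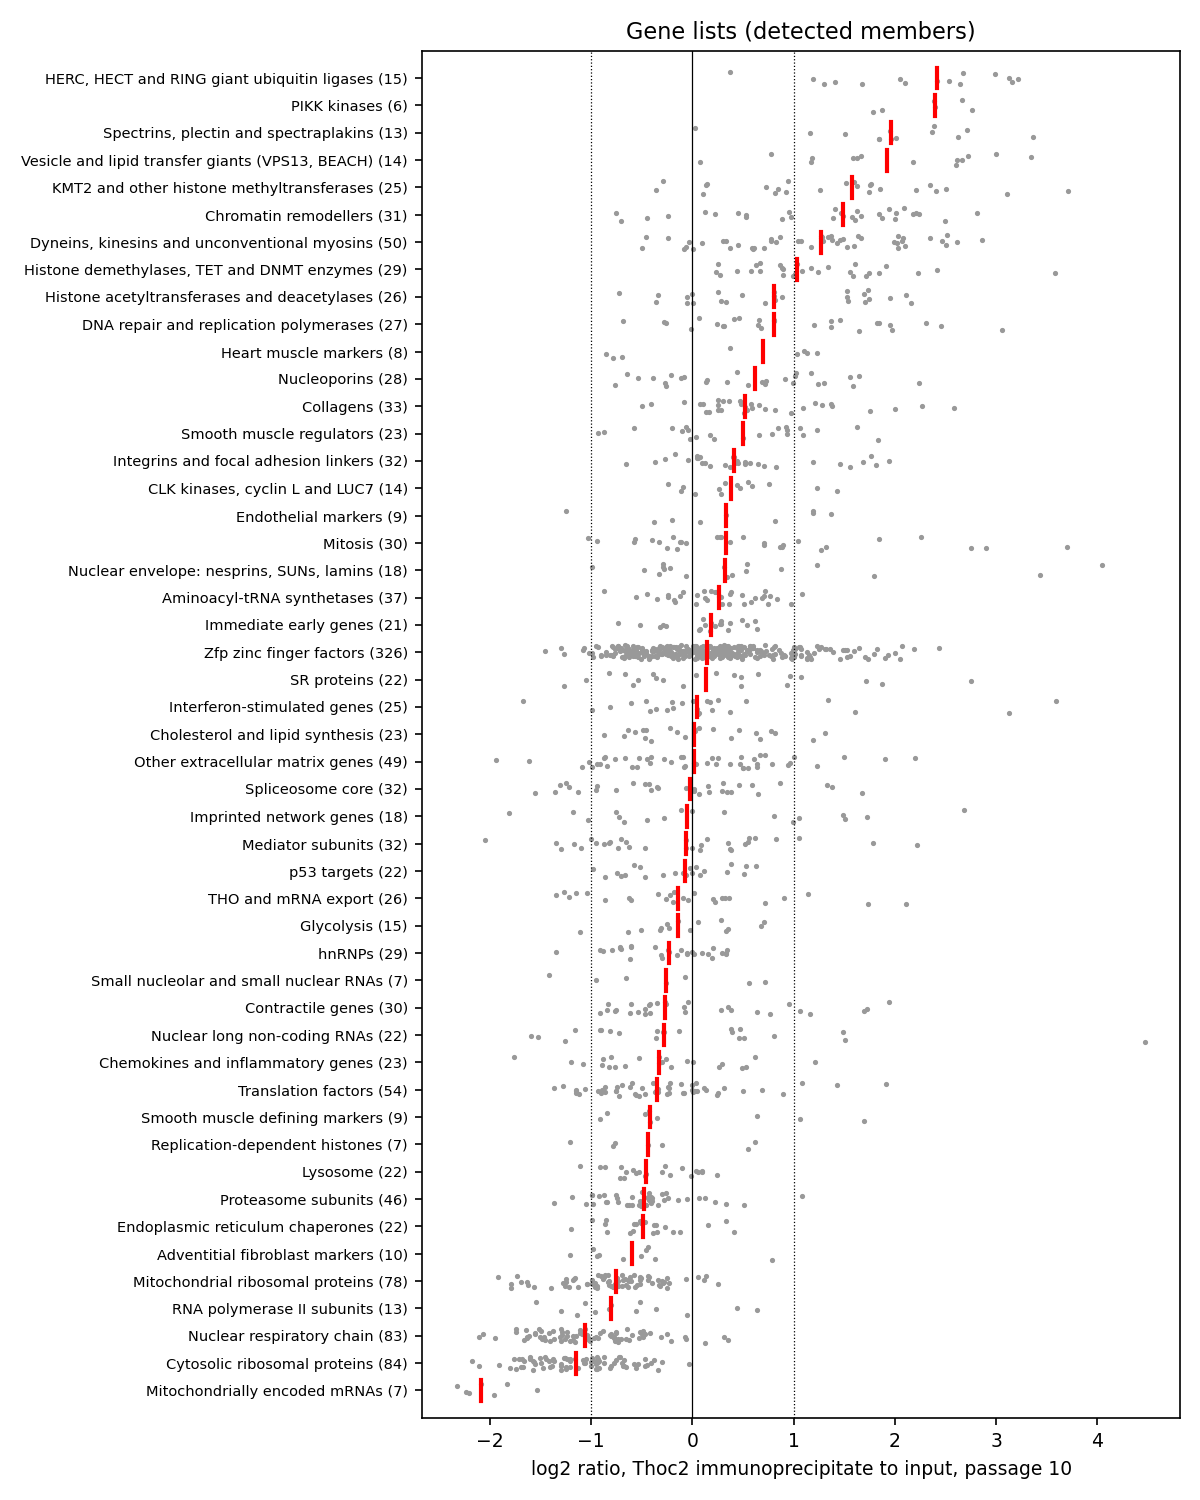
Each grey point is a detected gene of the list named on the y axis (number detected in parentheses, lists with at least 5), placed by its log2 ratio of Thoc2 to input at passage 10 on the x axis. Red bars are list medians, the dotted lines mark the 2-fold rule, and lists run from mitochondrially encoded mRNAs at −2.08 to giant ubiquitin ligases at 2.42.

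Smooth muscle genes were near the middle of this range. Of 30 contractile genes 5 were higher (16.7%, near the 12.3% of all genes) and 0 lower, and the median was −0.27. Besides Flna, Mylk (myosin light chain kinase) had 952 reads in the input and 2657 with Thoc2 (3.26-fold), with a span that overlaps E130310I04Rik. Ppp1r12b, a subunit of myosin phosphatase, had 78 and 240 (3.59-fold) and Synm (synemin) 179 and 353 (2.30-fold). Acta2 had 86616 and 41287 reads (0.557), and Vim 65266 and 40352 (0.722). The rank correlation with length was 0.76 over 27 contractile genes, and 10 of the 27 lay above genes of like length. Of 23 smooth muscle regulators 5 were higher (21.7%) and 0 lower, among them the receptors Notch2 (1115 and 3416 reads) and Notch1 (366 and 987) and their ligand Jag1 (380 and 774). The receptor Pdgfrb had 12871 and 15549 (1.41-fold) and Tgfbr2 3030 and 2252 (0.868).

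Matrix genes stood low relative to their length. Of 49 other extracellular matrix genes 4 were higher and 4 lower (8.16% each, against 12.3% and 7.33% of all genes). Of 47 with a length 13 lay above genes of like length, with a median of −0.28. Lama5 (laminin alpha 5) had 2474 and 9726 reads (4.59-fold) and Agrn (agrin) 705 and 2282 (3.78-fold), both basement membrane proteins. The small leucine-rich proteins Ogn (1264 and 349 reads) and Aspn (27 and 0 reads) were low, and the spans of both overlap Cenpp. Of 33 collagen genes 9 were higher (27.3%) and 0 lower. Col1a1 and Col1a2, which form type I collagen, were nearly level at 1.19-fold each, with 88641 and 90701 reads for Col1a1. Col6a3 had 1283 and 3738 (3.40-fold) and Col27a1 117 and 640 (6.39-fold). Of 32 integrin and focal adhesion genes 7 were higher (21.9%, against 12.3% of all genes), among them Tln2 (talin 2, 881 and 2666 reads) and Flnc (2286 and 6295).

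Secretory, stress and immune lists differed in their share of calls. Endoplasmic reticulum chaperones had 0 higher and 1 lower of 22, and lysosome genes 0 and 1 of 22. The lower share was 4.55% in each, against 7.33% of all genes, and 12.3% of all genes were higher. The medians of these 2 lists were −0.49 and −0.46, and 4 and 5 of the 22 lay above genes of like length. The lower lysosome gene was Lamp2, with 6191 and 2451 reads at 4111 bases. Of 21 immediate early genes and of 22 p53 targets 0 passed the 2-fold rule in either direction, with medians of 0.18 and −0.08. Of 23 chemokine and inflammatory genes 1 was higher (4.35%) and 3 lower (7.33% of all genes were lower). Among them Ccl5 (209 and 47 reads), Cxcl1 (2511 and 932) and Cxcl16 (943 and 379, with a span that overlaps Zmynd15) were lower, and Tnfaip3, a brake on NF-kappa B signalling, was higher (396 and 797). Interferon-stimulated genes had 4 higher (16%, against 12.3%) and 1 lower (4%) of 25. The higher ones include the large proteins Helz2 and Rnf213, and the lower one was B2m, the light chain of class I histocompatibility antigens, with 21328 and 5726 reads (0.314). Of 18 imprinted genes 5 were higher (27.8%) and 3 lower (16.7%), with Peg3, a zinc finger protein, at 314 and 1767 reads (6.57-fold) and the growth factor Igf2 at 3872 and 942 (0.284).

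Of 18 detected miRNA genes 3 were counted as higher (16.7%, near the 12.3% of all genes). Their hairpins are shown because they are the shortest features that passed the rule in that direction against the length order. The capitals mark the mature miRNAs given by RefSeq (GRCm38.p6), and the letters run from the 5′ end.
Mir711: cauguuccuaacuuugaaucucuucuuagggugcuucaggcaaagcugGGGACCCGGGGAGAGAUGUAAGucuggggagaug
Mirlet7b: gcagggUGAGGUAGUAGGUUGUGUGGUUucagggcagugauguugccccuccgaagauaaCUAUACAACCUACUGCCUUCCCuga
Mir705: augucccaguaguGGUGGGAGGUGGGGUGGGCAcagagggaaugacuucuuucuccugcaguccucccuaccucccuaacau
In that build Mir711 lies at chr9:108969922-108970003 on the plus strand, Mirlet7b at chr15:85707319-85707403 on the plus strand and Mir705 at chr6:85336292-85336373 on the minus strand. Mir711 had 2 reads in the input and 20 with Thoc2 (11.7-fold, interval 2.84 to 103), and its span overlaps Col7a1, which itself had 288 and 1222 reads. Mirlet7b, a precursor of the let-7 family, had 5 and 23 reads (5.37-fold, 1.997 to 18.1). Mir711 and Mirlet7b were under 1 CPM in the input and could pass in this direction only. Mir705 had 89 and 165 reads (2.16-fold, 1.66 to 2.83), and its span overlaps Rab11fip5. Reads counted for these hairpins can come from longer transcripts that run through them, so they are no measure of the mature miRNAs.

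The same antibody was used at passage 3, where both the input and the immunoprecipitate were separate libraries. They held 36335011 and 5396291 counted reads, so depth differed from that at passage 10. Of the 1549 genes counted as higher at passage 10, 1441 were detected at passage 3 and 1192 were at least 2-fold higher there too. These shared genes are 77.0% of the genes higher at passage 10 and 50.6% of the 2354 genes higher at passage 3 (18% of those detected there). Of the 886 genes lower at passage 10 that were detected at passage 3, 762 were at least 2-fold lower there, where 21.8% of all genes were lower. Spearman's rank correlation between the log2 ratios of the passages was 0.83 over 11859 genes detected in both, as a description across genes. All 20 of the highest genes at passage 10 were at least 2-fold higher at passage 3, with log2 ratios from 2.09 (Ttll4) to 5.94 (D830031N03Rik, whose span overlaps Macf1). Firre, the highest at passage 10, had a log2 ratio of 3.16 at passage 3, below that of Syne2 at 5.29. The length order was steeper at passage 3, where bin medians ran from −1.48 to 1.30.

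Ribosomal RNA and muscle transcripts set the passages apart. Rn18s and Rn28s1 had log2 ratios of 0.28 and 0.24 at passage 10 and 4.15 and 5.44 at passage 3. Rnr1 and Rnr2 were at −2.43 and −2.22 at passage 10 and at 0.63 and 0.54 at passage 3, while the mitochondrial messages were low at both, with a median of −3.25 at passage 3. The heart muscle transcripts Myh6, Actc1, Myl2 and Myh7 were counted as higher at passage 10 from 14, 13, 6 and 5 reads in the input to 35, 34, 19 and 21 with Thoc2, at most 2.15 CPM. The other detected heart muscle markers did not pass the rule. Tnnt2 at 828 and 388 reads (log2 −0.86), Nppb at 85 and 39 (−0.78) and Nppa at 21 and 8 (−0.69) stood below input. Tnni3 stood above it at 24 and 29 reads (0.37). The 9 listed heart muscle markers, of which 8 were detected, summed to 52.5 CPM in the input and 35.9 with Thoc2. Each of the higher ones was under 1 CPM in the input and could pass in this direction only, and Myl2 overlaps Ccdc63. At passage 3 the log2 ratios of Myh6, Actc1, Myl2 and Myh7 were 6.35, 5.27, 5.06 and 2.46. A passage effect and a difference between single preparations cannot be told apart.

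The Thoc5 immunoprecipitate of passage 10 shares its input with Thoc2, so the values are given side by side only. Genes higher with Thoc2 had a median log2 ratio of 0.91 with Thoc5, and genes lower with Thoc2 −0.91. The 20 highest with Thoc2 ranged from 1.22 (Adcy1) to 2.70 (Syne2) with Thoc5, where Firre stood at 2.41. The bin medians by length ran from −0.67 to 0.64 with Thoc5. Thoc2's own message had log2 ratios of 1.14 with Thoc2 and −0.18 with Thoc5. With Thoc5, 749 genes (5.94%) were at least 2-fold higher and 581 (4.61%) at least 2-fold lower, from 9364965 reads.

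The authors' deposited list of Thoc2-associated genes at passage 10 holds 2277 genes, each with a posterior probability of at least 0.300 for the enriched class. All 1549 genes counted as higher here are in it and make up 68.0% of it, and the lowest log2 ratio in the list was 0.46. The list was drawn from the same libraries and reached down to ratios below the cut used here. That it holds all of these genes is therefore no independent check of them. In the authors' deposited table of Thoc5 silencing, the median log2 fold change was 0.05 for genes higher with Thoc2, −0.03 for genes lower with Thoc2 and 0.01 for all genes in both tables.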

How the data were processed

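The authors deposited, for each antibody and passage, a table with raw read counts per gene in the input and the immunoprecipitate, a normalized signal and a ratio. Per the labels, RNA was immunoprecipitated with the Magna RIP kit and libraries were made with a TruSeq kit. Per the submitters' processing notes, the mm9 build was used with featureCounts, Subread, bcl2fastq, HOMER 4.8.3, MACS2 2.1.1 and limma, without a statement of the step each tool served. The authors' normalized signal was the count times 1.19 in both libraries, and the authors' ratio was the quotient of those signals after 2 was added to each. The deposited score for selected genes is the posterior probability of an enriched class, by its header and values. The authors' log2 fold changes of Thoc5 silencing and the gene lengths in bases came from a further deposited table.

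The deposited table lists genes with at least 11 reads over both libraries. Counts were scaled to CPM by column totals (Python 3.11.15, pandas 2.3.3, scipy 1.17.1), with exact conditional binomial intervals for the ratio, and TMM factors from edgeR 4.0.16 in R 4.3.3 as an alternative. The code was tested on simulated data. Of the 13467 genes, 13243 had a symbol in the files or RefSeq, and 13057 matched a RefSeq table for GRCm38.p6, used for names, overlapping spans and miRNA hairpins only. Whether counting used strand is not stated, so reads of genes with overlapping spans are uncertain, as for 2446 of the detected genes.

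The members and the 52 gene lists were chosen with earlier results of these data known, and the comparison with genes of like length was chosen after seeing the data. The list of translation factors was trimmed of kinases and other non-factors after its values were seen. Named were the 20 genes at each end, the 10 with the largest gains and losses of CPM, and, per list, up to 4 genes past the fold in each direction and the 2 most abundant in the input; others are said to be picked later or are markers. A few named genes are not reported here. Alternatives were other added amounts, scalings, folds and minimums of reads, and leaving out genes with overlapping spans.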

Additional observations from a re-analysis of the deposited data

Results flagged for a closer look

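The following genes had log2 ratios of opposite sign in 2 immunoprecipitates, and none of these differences was tested. Between Thoc2 at passage 10 and Thoc2 at passage 3, Rnr1 had log2 ratios of −2.43 and 0.63 and Rnr2 of −2.22 and 0.54. Mylk had 1.69 and −0.56 and Jag1 1.23 and −0.22. The median of all genes detected at passage 3 was −0.15, so Jag1 was near level there. Others were at least 2-fold in opposite directions. Rnft2 had log2 ratios of 1.99 and −1.13 and Ulk4 of 1.46 and −1.15, while Ppp2r3c had −1.15 and 1.15, Msmp −1.21 and 2.18 and Cox6a2 −1.36 and 1.23. These 5 had at most 253 reads with Thoc2 at passage 10, and Rnft2, Ppp2r3c and Msmp overlap other genes. At passage 3 Rnft2 had 51 reads in the input and only 2 with Thoc2, and Ulk4 had 37 and 1. Ppp2r3c had 181 and 63 reads there, Msmp 63 and 52 and Cox6a2 87 and 34. With Thoc5 at passage 10, which shares the input, the Thoc2 message had −0.18 against 1.14 with Thoc2.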

How the results depend on the processing

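The numbers of genes past the rule, the count of lists above the median of all genes and the gap in median log2 ratio between the longest and shortest length bins were recomputed under each alternative. The main counts were 1549 higher and 926 lower. A fold of 1.5 gave 2824 and 2622, and a fold of 4 gave 261 and 23. With the nearer bound of the counting interval required to pass the fold, 1146 were higher and 520 lower. Without scaling, as in the authors' common factor, the balance turned to 1080 higher and 1592 lower, since the median of all genes then lay at −0.24 and not −0.03. The gap between length bins was 1.85 and became 1.70 with 2 CPM added. Against genes of like length, an alternative chosen after seeing the data, 651 were above and 522 below. Leaving out genes with overlapping spans turned the sign of 4 list medians, all taken relative to the median of all genes. Nuclear long non-coding RNAs went from −0.26 to 0.40, SR proteins from 0.16 to −0.12, Mediator subunits from −0.04 to 0.08 and imprinted genes from −0.03 to 0.01. The spliceosome core, at 0.00077, turned to −0.0027 with 2 CPM added and −0.0047 without scaling. The 40 genes at the ends of the range stayed past the fold under each other scaling and added amount. No paired analysis was possible because each arm has 1 library, and for the same reason no replicate could be left out. The alternative with protein length was not run, since no protein table was used here. Depth limits genes near 1 CPM.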
